A study of Homo sapiens with 6 samples.

Results

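The siRNAs described here target 5 kinases that sense cell stress: EIF2AK1, EIF2AK2, EIF2AK3, EIF2AK4 and ERN1. They held 5 of the 939 library wells of a viability screen, 1 well and 1 catalogue number for each gene; by locus identifier the library wells cover 925 genes. Wells were found by the gene's locus identifier, which is 27102 for EIF2AK1 (listed under the older name HRI), 5610 for EIF2AK2 (listed as PRKR), 9451 for EIF2AK3 and 2081 for ERN1. The EIF2AK4 well carries the identifier 27104, which the RefSeq table used here does not hold (it gives EIF2AK4 as 440275), so that well was taken by its symbol. SUM149PT cells, grown from a triple-negative inflammatory tumour of the breast and long established in culture, received siRNA at 45 nM and stood for 48 hours. They were then left untreated (3 samples) or given eicosapentaenoic acid (EPA), an omega-3 fatty acid, at 50 µM for 72 hours (3 samples). Each well was read as the fluorescence of a resazurin dye that living cells convert. The series was made to find druggable genes whose silencing complements EPA. Whether the samples came from separate cultures is not stated in the sources used here, so a p-value reflects the spread among these samples alone, and that spread may be technical. The files hold no RNA or protein values, so neither the loss of each target nor the identity of the cells was measured.

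As background, EIF2AK1 to EIF2AK4 each phosphorylate the alpha subunit of the translation initiation factor eIF2, which lowers general protein synthesis and favours translation of transcription factors such as ATF4. This is the integrated stress response. EIF2AK2 (PKR) is activated by double-stranded RNA, EIF2AK3 (PERK) by unfolded protein in the endoplasmic reticulum, EIF2AK1 (HRI) by lack of haem and by mitochondrial stress, and EIF2AK4 (GCN2) by lack of amino acids. ERN1 (IRE1 alpha) is the other endoplasmic reticulum sensor among the members: it is a kinase and RNase that splices the XBP1 mRNA and can pass a signal to the JNK kinases. Unsaturated fatty acids such as EPA enter membrane lipids, and membrane lipid composition is among the inputs that PERK and IRE1 are known to sense.

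Wells of OTP3, the negative control siRNA, fell from a median of 49147 ± 1644 units untreated to 21951 ± 4049 with EPA (SD, n = 3 samples each), so that 44.7% ± 4.83 (SE) of the signal was left. The median level of the library wells fell from 22991 ± 1184 to 13565 ± 1404, or 59.0% ± 3.94 left. Taken one by one, library siRNAs had a median share left of 68.5% on plate 1 (without EIF2AK1) and 69.5% on plate 2 (without EIF2AK2). TOX, the positive control, read 4539 untreated and 3834 with EPA, close to blank wells at 3787 and 3926. Shares left, and counts of siRNAs that kept less, used values as deposited, without blank subtraction. On that scale TOX kept 84.5%, so a well near the blank level can show a high share left. With blank wells subtracted OTP3 kept 39.8% and the median level of the library wells 50.4%. The share left depended on the plate row: in the OTP3 and cells-alone wells of plate 1 it was 96.2% in row 1, 34.5% in row 9 and 80.8% in row 16. By their median level, library wells of the same plate kept 91.7%, 57.4% and 73.5% in those rows. Each member's plate row is therefore given with its values, together with the controls and library siRNAs of that row.

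In untreated cells 4 of the 5 siRNAs, those against the eIF2 alpha kinases, gave a higher signal than the library median, and ERN1 did not pass the test. With EPA all 5 were higher. In EPA-treated minus untreated, the comparison the screen was built for, ERN1 (0.76) and EIF2AK2 (0.57) were higher on the log2 scale and none was lower. No siRNA against these kinases was thus called as losing more signal with EPA than the library median level of its plate, where 15.2% of all library siRNAs were. After quantile normalization EIF2AK4 was called lower (-0.43, limma adjusted p = 0.026). Against the plate's library median the difference of the median library siRNA was itself 0.20, and EIF2AK3 (-0.01), EIF2AK1 (-0.05) and EIF2AK4 (-0.23) lay below it. Whether these members differ from that median siRNA was not tested. Values were log2 ratios to the median library well of the same plate and sample, and calls were made by limma at an adjusted p under 0.05 over all 939 library wells. By that rule 33.9% of all library siRNAs were higher and 35.6% lower untreated, 36.4% were higher and 37.0% lower with EPA, and 29.0% were higher and 15.2% lower in EPA-treated minus untreated. The member median was 0.75 untreated, 0.70 with EPA and -0.01 for the difference, beside -0.01, 0.03 and 0.20 over all library siRNAs.

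**Figure D1:**
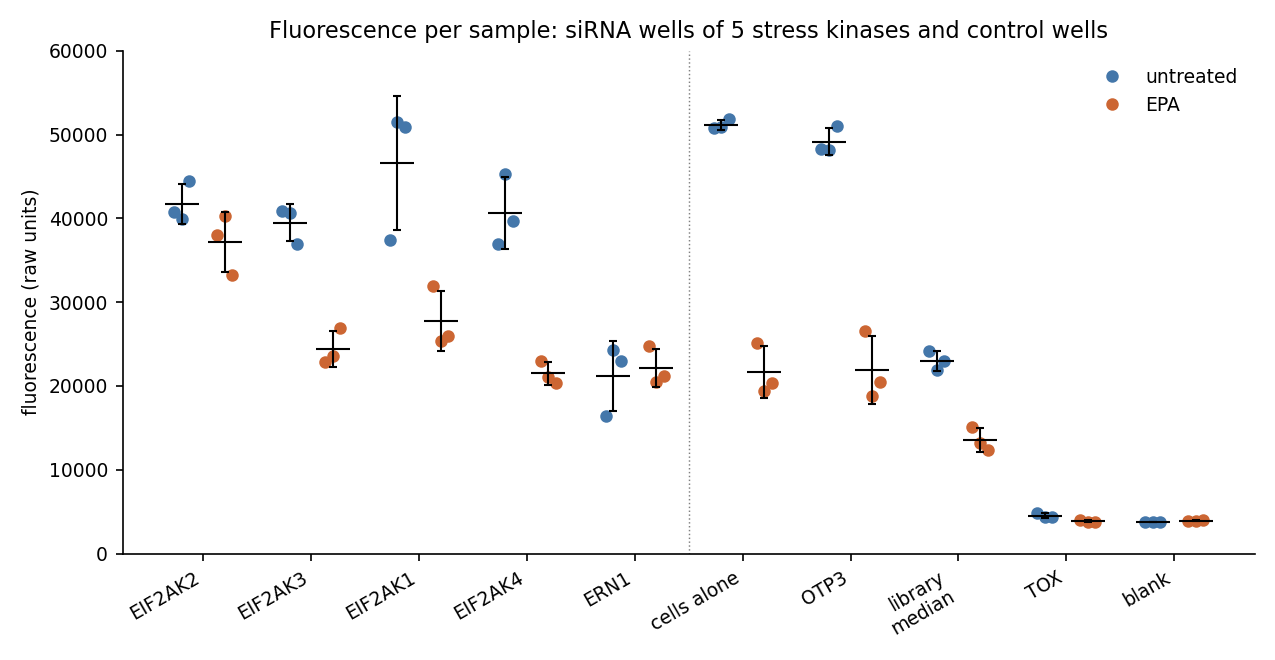
Fluorescence (vertical axis, raw units from 0) of the 5 siRNA wells and, right of the dotted line, the median of the control and library wells over all plates, in 3 untreated (blue) and 3 EPA-treated (orange) samples. Points are samples, and black bars are mean ± SD. The groups overlap for EIF2AK2 and ERN1, while the EPA-treated values lie below all untreated values for EIF2AK3, EIF2AK1 and EIF2AK4. The share of library siRNAs with such raw values was not counted.

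The siRNA against EIF2AK2, the double-stranded RNA sensor, kept most of its signal with EPA. Its well on plate 2 (row 10, column 20) read 40741, 39900 and 44409 in untreated replicates 1 to 3 and 38068, 40260 and 33257 in EPA-treated replicates 4 to 6. The raw values of the groups overlap, with a mean of 41683 ± 2398 untreated and 37195 ± 3582 with EPA (SD, n = 3). So 89.2% ± 5.78 (SE) of the signal was left, where the OTP3 wells of plate 2 kept 42.4% ± 4.65. The median level of the library wells of that plate kept 60.6% ± 7.26, and 249 of the other 319 library siRNAs kept less than EIF2AK2. Untreated, the well stood at 77.5%, 78.1% and 82.2% of the plate's OTP3 median. With EPA it stood at 141%, 211% and 161% of it. The share of OTP3 was higher in all 3 EPA-treated samples than in all 3 untreated ones (two-sided exact permutation test, p = 0.1, which is the lowest value possible with 3 samples in each group). How many library siRNAs did so on this scale was not counted. With centring on OTP3, limma called 58.1% of all library siRNAs higher in EPA-treated minus untreated.

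Relative to the library median, EIF2AK2 was at 0.76 (SE 0.102, limma adjusted p = 8.82e-05) untreated and at 1.33 (SE 0.102, adjusted p = 1.23e-06) with EPA. It ranked from 768 to 857 of 939 in the untreated samples and from 827 to 909 in the EPA-treated samples, counted from the lowest. The difference of 0.57 (SE 0.144, 95% interval 0.25 to 0.89, adjusted p = 0.0108) was carried by 3 of 3 samples, with no overlap between the groups, as for 36.0% of all library siRNAs in that direction.

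The EIF2AK2 difference depended on the wells it was compared with. The 2 control wells of its row kept 34.9% and 39.9%, and against them the difference was 1.26 (SE 0.131, adjusted p = 7.96e-05). The other 19 library siRNAs of the row kept between 30.4% and 108% of their signal, and 13 of them kept less than EIF2AK2. Against the library median of the row the difference was 0.45 (adjusted p = 0.0725), after median polish of plate rows and columns it was 0.41 (adjusted p = 0.101), and after quantile normalization 0.24 (adjusted p = 0.202). With median polish and blank subtraction together it was 0.58 (adjusted p = 0.0924), so the call was lost in these 4 settings. Against the 8 adjacent library wells, of which 6 kept less, it was 0.77 (adjusted p = 0.00149). Leaving out any 1 sample kept it between 0.47 and 0.70 (adjusted p at most 0.0408). The difference was positive under each of the 17 other settings run.

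A gene next to EIF2AK2 in the pathway lay in the same row. PRKRA encodes PACT, a protein that activates PKR, and its siRNA in column 22 was named here after its values were seen. That well read 25983, 19531 and 19914 untreated and 14733, 10955 and 12087 with EPA, so 57.7% ± 7.55 (SE) was left. PRKRA differed from the plate median by -0.06 in EPA-treated minus untreated (SE 0.158, adjusted p = 0.788), and the difference between PRKRA and EIF2AK2 was not tested.

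**Figure D2:**
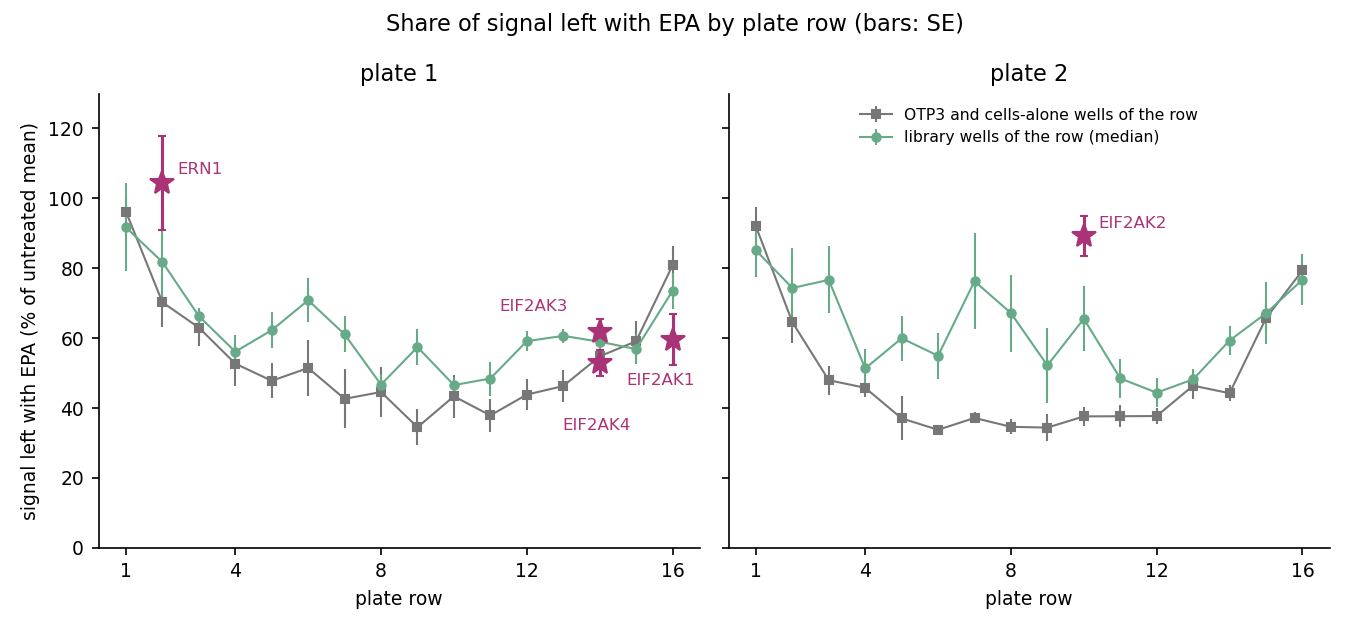
Signal left with EPA as a percent of the untreated mean (vertical axis) by plate row (horizontal axis) on the 2 plates that hold the members: medians of the OTP3 and cells-alone wells of the row (grey squares) and of its library wells (green circles), with the members as stars; bars are SE over samples. EIF2AK2 (89.2%) lies above the control wells of row 10 (37.6%), ERN1 (104%) lies in row 2 of plate 1, where control wells kept 70.2%, and EIF2AK1 (59.6%) lies below the control wells of row 16 (80.8%).

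The siRNA against ERN1 gave a lower signal than OTP3 without EPA, and its mean signal was no lower with EPA. Its well on plate 1 (row 2, column 14) read 16432, 24292 and 22928 untreated and 24745, 20513 and 21230 with EPA. These groups overlap, at 21217 ± 4200 untreated and 22163 ± 2265 with EPA (SD, n = 3), and 104% ± 13.4 (SE) of the signal was left. Untreated replicate 1 was the lowest of the 6 values. Untreated, ERN1 stood at 32.6%, 49.0% and 43.1% of the OTP3 median of its plate, the lowest share of the 5 members, and centred on OTP3 it was at -1.29 (adjusted p = 8.35e-07). The median library siRNA was at -1.13 on that scale. With EPA, ERN1 stood at 77.4%, 105% and 92.8% of OTP3, above all 3 untreated shares (exact permutation p = 0.1). As for EIF2AK2, how many library siRNAs did so on this scale was not counted.

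Relative to the library median ERN1 was at -0.20 (SE 0.123, adjusted p = 0.158) untreated, above the median in 0 of 3 samples, and at 0.56 (SE 0.123, adjusted p = 0.00192) with EPA, above it in 3 of 3. The difference of 0.76 (SE 0.173, 95% interval 0.38 to 1.15, adjusted p = 0.00654) was the highest of the 5 and higher than 93.3% of library siRNAs. Without untreated replicate 1 it was 0.59 (adjusted p = 0.0181).

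Row 2 was also a row where EPA took less signal. The 2 control wells there kept 70.2% ± 7.15 as a median per sample, or 58.5% and 81.3% taken one by one. The other library siRNAs of the row kept 81.7% ± 10.4 as a median per sample. ERN1 kept more than each of the other 19 siRNAs of its row and each of the 8 adjacent ones. Against the control wells of the row ERN1 was higher with EPA by 0.63 (SE 0.192, adjusted p = 0.0156). It no longer passed against the library median of the row (0.35, adjusted p = 0.0757), against the adjacent wells (0.36, adjusted p = 0.184), after median polish (0.18, adjusted p = 0.438) or after median polish with blank subtraction (0.14, adjusted p = 0.694). The higher call with EPA alone was lost in the same 4 settings, at -0.04, -0.27, 0.05 and 0.0385, and with OTP3 centring, at -0.13. Against the control wells of the row ERN1 was lower both untreated (-1.37, adjusted p = 2.18e-06) and with EPA (-0.74, adjusted p = 0.000422).

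EIF2AK3, the PERK kinase of the endoplasmic reticulum, lost signal with EPA. Its well on plate 1 (row 14, column 13) read 40857, 40642 and 36996 untreated and 22842, 23558 and 26900 with EPA. All 3 EPA-treated values lie below all 3 untreated ones, and 61.9% ± 3.72 (SE) was left. How many library siRNAs separate in this way on raw values was not counted. The median level of the plate's library wells kept 62.4% ± 3.41. The 2 control wells of the row kept 54.8% ± 4.72 as a median per sample, or 43.1% and 64.5% taken one by one. Of the other 319 library siRNAs of the plate, 123 kept less than EIF2AK3. The other library siRNAs of row 14, as a median per sample, kept 58.8% ± 6.17. Taken one by one, these 19 siRNAs had a median share left of 65.9%, and 8 of them kept less than EIF2AK3. EIF2AK3 was at 0.71 untreated and 0.70 with EPA (SE 0.102 each, adjusted p = 0.00014 and 0.000116). The difference was -0.01 (95% interval -0.33 to 0.31, adjusted p = 0.958). It passed in 1 setting, against the adjacent library wells, at 0.57 (adjusted p = 0.0214). The median level of these 8 wells in each sample kept 42.5% ± 2.02. Taken one by one, they had a median share left of 62.2%, and 4 of the 8 kept less than EIF2AK3.

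EIF2AK4, the amino acid sensor, sat 2 columns away in the same row of plate 1. It read 36904, 45327 and 39630 untreated and 22973, 21108 and 20393 with EPA, again with no overlap. The library siRNAs that separate in this way on raw values were not counted. For EIF2AK4 52.9% ± 3.75 (SE) was left, beside the same row values as for EIF2AK3. Of the other 19 library siRNAs of the row, 5 kept less than EIF2AK4. It was at 0.75 untreated and 0.52 with EPA (SE 0.0903 each, adjusted p = 4.39e-05 and 0.000429). The difference of -0.23 (95% interval -0.52 to 0.05, adjusted p = 0.166) was the lowest of the 5, and 24.8% of library siRNAs lay below it. On the plate-centred scale its 3 EPA-treated values lay below its 3 untreated values, as for 18.8% of all library siRNAs. After quantile normalization EIF2AK4 passed as lower with EPA (-0.43, adjusted p = 0.026), and against the control wells of the row it was at 0.02 (adjusted p = 0.923).

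EIF2AK1, the HRI kinase, lay in row 16 of plate 1 (column 16), an outer row that kept more signal with EPA. It read 37361, 51462 and 50960 untreated and 31921, 25413 and 25986 with EPA, with untreated replicate 1 far below the other 2. The groups did not overlap, and how many library siRNAs separate in this way on raw values was not counted. The means were 46594 ± 8000 and 27773 ± 3603 (SD, n = 3), and 59.6% ± 7.41 (SE) was left. It had the highest untreated value of the members, 0.94 (SE 0.102, adjusted p = 2.11e-05), and stood at 0.88 with EPA (adjusted p = 2.24e-05). The difference was -0.05 (95% interval -0.38 to 0.27, adjusted p = 0.778). The 2 control wells of row 16 kept 80.8% ± 5.46 as a median per sample, or 76.1% and 85.0% taken one by one. The median level of the other library siRNAs of the row kept 75.3% ± 5.74. Of these 19 siRNAs, 2 kept less than EIF2AK1. Against the control wells of the row EIF2AK1 stood at 64.2%, 84.5% and 83.4% untreated and at 58.2%, 57.3% and 56.0% with EPA. All 3 values with EPA lay below the untreated ones (exact permutation p = 0.1), and how many library siRNAs did so was not counted. In limma's fit the EIF2AK1 difference against these control wells was -0.42 (adjusted p = 0.0512), and after median polish it was -0.39 (adjusted p = 0.0865), neither past the threshold. The higher call with EPA was lost against the library median of the row, where EIF2AK1 stood at 0.04 (adjusted p = 0.727).

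**Figure D3:**
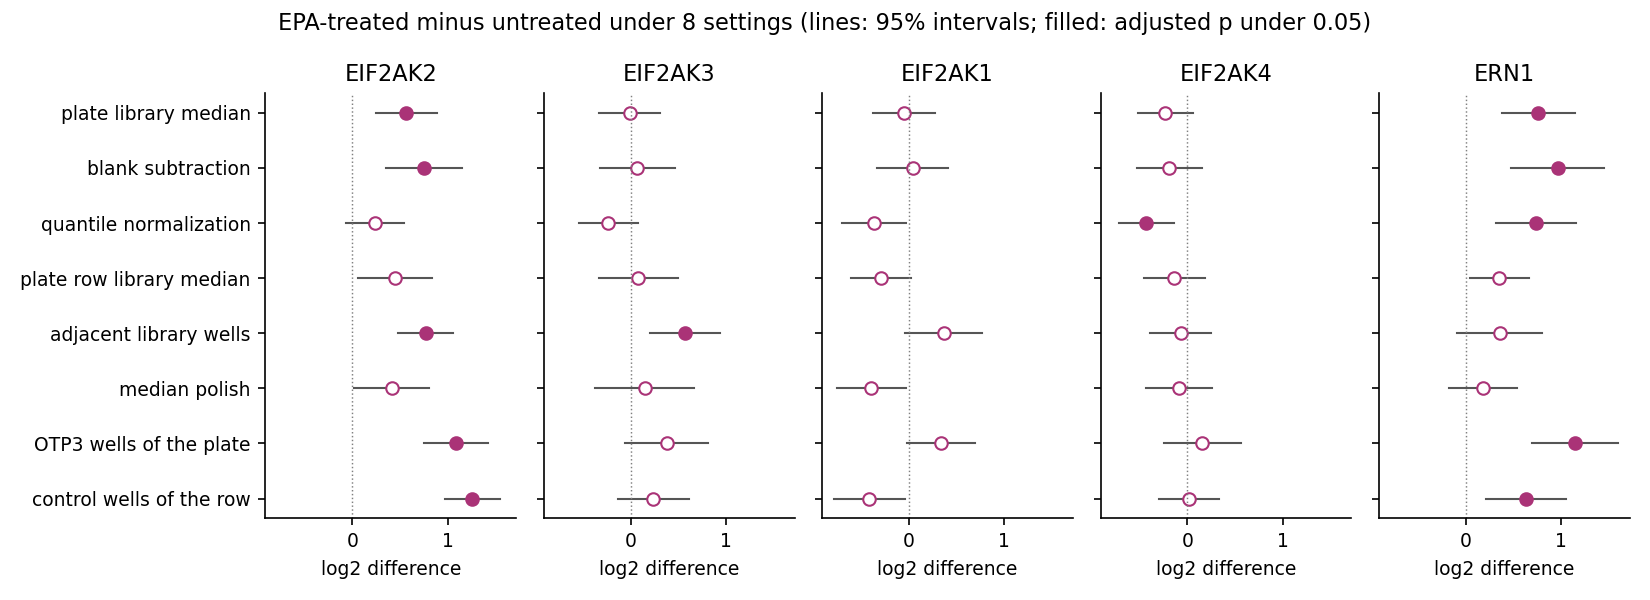
EPA-treated minus untreated (horizontal axis, log2 difference) of each member under 8 choices of reference or background (vertical axis). Points are estimates, lines are 95% intervals from limma, and filled points have an adjusted p under 0.05. EIF2AK2 ranges from 0.24 to 1.26 and ERN1 from 0.18 to 1.15 over these settings, while EIF2AK1, EIF2AK3 and EIF2AK4 have values on both sides of 0.

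The counts of members called moved with the reference. In EPA-treated minus untreated, the 2 higher members became 0 against the library median of the row (19.9% of library siRNAs were higher there), after median polish (16.3%) and after median polish with blank subtraction (13.7%). With quantile normalization 1 was higher, ERN1, and 1 lower, EIF2AK4, where 19.4% of library siRNAs were higher and 17.0% lower. With EPA, 3 in place of 5 were higher against the library median of the row (32.3%). With EPA 4 were higher against adjacent wells (33.9%), after median polish (30.6%) and after median polish with blank subtraction (30.2%), ERN1 being the member lost each time. Without edge wells EIF2AK1 was not tested, and of the other 4 members 3 were higher untreated (33.3%) and 4 with EPA (35.1%). Untreated, ERN1 passed as lower against the library median of the row (30.7% were lower), against adjacent wells (29.0%) and after a filter on low signals (31.7%).

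Higher than the library median did not mean higher than the negative control siRNA. Centred on OTP3, 4 members were lower untreated (91.8% of all library siRNAs were) and 0 were higher (0.532%). Against the control wells of the row all 5 were lower untreated (94.5%) and 0 higher (0.213%), and with EPA 2 were lower, ERN1 and EIF2AK1 (68.2%), and 1 higher, EIF2AK2 (6.82%). The OTP3-centred values were -0.37 for EIF2AK3, -0.34 for EIF2AK2, -0.33 for EIF2AK4 and -0.15 for EIF2AK1, the last with an adjusted p of 0.246. With EPA, EIF2AK2 alone was higher than OTP3 (0.75, adjusted p = 1.42e-05), where 13.5% of library siRNAs were higher and 64.6% lower. The other 4 lay between -0.18 and 0.19 and did not pass. In EPA-treated minus untreated 2 members were higher on that scale, EIF2AK2 at 1.09 (adjusted p = 6.64e-05) and ERN1 at 1.15 (adjusted p = 0.00038), where 58.1% of library siRNAs were higher and 6.28% lower. OTP3 centring put the median library siRNA at -1.13 untreated, -0.68 with EPA and 0.63 for the difference. EIF2AK2 and ERN1 exceeded that shift of the median siRNA, and EIF2AK1 (0.33), EIF2AK3 (0.38) and EIF2AK4 (0.16) lay below it.

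The members were then set against each other. Untreated, the log2 values of the 4 eIF2 alpha kinases overlapped in every pair, in the order EIF2AK1, EIF2AK2, EIF2AK4, EIF2AK3, and ERN1 lay below each of them with no overlap. With EPA the order was EIF2AK2, EIF2AK1, EIF2AK3, ERN1, EIF2AK4. EIF2AK2 there lay above each of the others without overlap. EIF2AK3 overlapped with EIF2AK1, ERN1 and EIF2AK4, and ERN1 overlapped with EIF2AK4. Of the 10 pairs, 6 had a within-sample difference that did not overlap between untreated and EPA-treated samples, as did 48.2% of all 440391 pairs of library siRNAs. These were the pairs of EIF2AK2 or ERN1 with EIF2AK1, EIF2AK3 or EIF2AK4, each with an exact permutation p of 0.1 and a Benjamini-Hochberg adjusted p of 0.167 over the 10 pairs. On the log2 scale the response was higher for EIF2AK2 than for EIF2AK3 by 0.58 and than for EIF2AK4 by 0.80, and EIF2AK1 minus EIF2AK2 was -0.62. Against ERN1 the response was -0.82 for EIF2AK1, -0.77 for EIF2AK3 and -0.99 for EIF2AK4. EIF2AK2 and ERN1 differed from each other by -0.20 in their response (exact permutation p = 0.5). All these pair values rest on the plate library median, and in the 6 pairs the members lay in different plate rows. After median polish ERN1 (0.18) and EIF2AK3 (0.15) had similar differences, and against adjacent wells ERN1 (0.36) lay below EIF2AK3 (0.57). EIF2AK2 stayed above EIF2AK3 in both settings (0.41 and 0.77). Pairs were not tested in those settings.

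Likeness of pattern was measured as the root mean square distance of log2 values over the 6 samples. Among the members the closest pair was EIF2AK3 and EIF2AK4 (0.20), which also shared a plate row, and the farthest was EIF2AK2 and ERN1 (0.89). The 2 library siRNAs closest to EIF2AK2 were those against CSK (0.12), a kinase that inhibits SRC family members, and DLG1 (0.14), a scaffold protein, neither in an edge well (rows 1 and 16 and column 24). The closest to EIF2AK1 were MAP3K6 (0.0722) and HK1 (0.17), both in edge wells as EIF2AK1 is. The closest to EIF2AK3 were HIPK1 (0.0914), in the same row, and NTRK2 (0.0964), and those to EIF2AK4 were ADGRE5 (0.13, listed as CD97) and STK4 (0.13). The closest to ERN1 were PFKFB2 (0.15), whose well adjoins that of EIF2AK2, and MAPK15 (0.18, listed as ERK8), in the same row as ERN1. The median distance of a member to all other library siRNAs ranged from 0.76 to 1.18.

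The IRE1 branch beyond ERN1 was covered by 6 of 8 listed genes, the JNK pathway kinases MAP3K5, MAP2K4, MAP2K7, MAPK8, MAPK9 and MAPK10. In EPA-treated minus untreated 3 of the 6 siRNAs were higher and 1 was lower, with a median of 0.33 against 0.20 over all siRNAs. Of all library siRNAs 29.0% were higher and 15.2% lower. MAP2K7, a kinase that activates JNK, was at 0.84 (SE 0.132, adjusted p = 0.00134), its wells reading 25497 ± 3786 untreated and 27381 ± 4201 with EPA (SD, n = 3). MAP3K5 (ASK1), in row 1, was at 0.75 (adjusted p = 0.00213), and MAPK10 (JNK3) was at 0.63 (adjusted p = 0.00887). The lower one was MAPK8 (JNK1), named here after its values were seen, at -0.43 (adjusted p = 0.0493). With OTP3 centring MAPK8 turned to 0.0881 (adjusted p = 0.721). After median polish 2 of the 6 were higher, MAP2K7 (0.63, adjusted p = 0.00324) and MAPK10 (0.63, adjusted p = 0.0232), and 1 was lower, while MAP3K5 (0.16) did not pass. In that setting 16.3% of all library siRNAs were higher, and the share that was lower is not given here. Untreated, 5 of the 6 were higher than the library median and 0 lower, where 33.9% of all library siRNAs were higher and 35.6% lower. With OTP3 centring 0 of the 6 were higher and 5 lower untreated, where 0.532% of all library siRNAs were higher and 91.8% lower.

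Partners and outputs of the eIF2 kinases were covered by 8 of 14 listed genes, with 1 higher, 1 lower and 6 not called in EPA-treated minus untreated (median 0.18). Among all library siRNAs 29.0% were higher and 15.2% lower. TRIB3, a pseudokinase whose gene is a known target of ATF4, was the higher one of the 8, at 0.98 (SE 0.216, adjusted p = 0.00573). Its wells read 29707, 23492 and 15482 untreated and 28649, 28157 and 24655 with EPA, so the raw values overlap. It passed after median polish too (0.79, adjusted p = 0.00322). GSK3B, a kinase that phosphorylates eIF2B, was the lower one, at -0.71 (SE 0.141, adjusted p = 0.00362), with 38.1% ± 1.72 (SE) left in an edge well of column 24. It passed after median polish (-0.998, adjusted p = 0.000206) and not with OTP3 centring (-0.32, adjusted p = 0.179). MAP3K7 (TAK1) was at 0.51 (adjusted p = 0.0548). DNAJC3 encodes P58IPK, an inhibitor of PKR and PERK, and is named here after its values were seen. It gave the lowest untreated signal of the 8, at -1.41 (adjusted p = 7.13e-06), and stood at -0.99 with EPA (adjusted p = 5.62e-05), with wells at 9135 ± 1345 and 7641 ± 1355. After median polish DNAJC3 was at -0.83 untreated (adjusted p = 2.6e-05) and at 0.000326 with EPA (adjusted p = 0.998). Its difference, 0.42 against the plate median (adjusted p = 0.0872), passed as higher there, at 0.83 (adjusted p = 0.00182).

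The list of other kinases of translation was measured in full, 9 of 9 genes, with 1 lower and 2 higher in EPA-treated minus untreated (median 0.10). Among all library siRNAs 15.2% were lower and 29.0% higher. MTOR, listed as FRAP1, was lower at -1.54 (SE 0.197, adjusted p = 0.000549). Its well kept 21.3% ± 2.42 (SE) of its signal, and it also passed after median polish (-1.44) and OTP3 centring (-1.15). The EPA-treated values of MTOR, 4632, 5921 and 5459, lay near those of blank wells (3926), and no blank was subtracted in these values. The higher ones were PDPK1 (0.71, adjusted p = 0.0466) and the S6 kinase RPS6KB1 (0.58, adjusted p = 0.0149), which did not pass after median polish (0.27, adjusted p = 0.281). PDPK1 read 16729, 8725 and 17472 untreated and 21124, 11400 and 10002 with EPA, so 99.1% ± 31.2 (SE) was left. The raw values overlap between the groups for PDPK1 and for RPS6KB1.

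**Figure D4:**
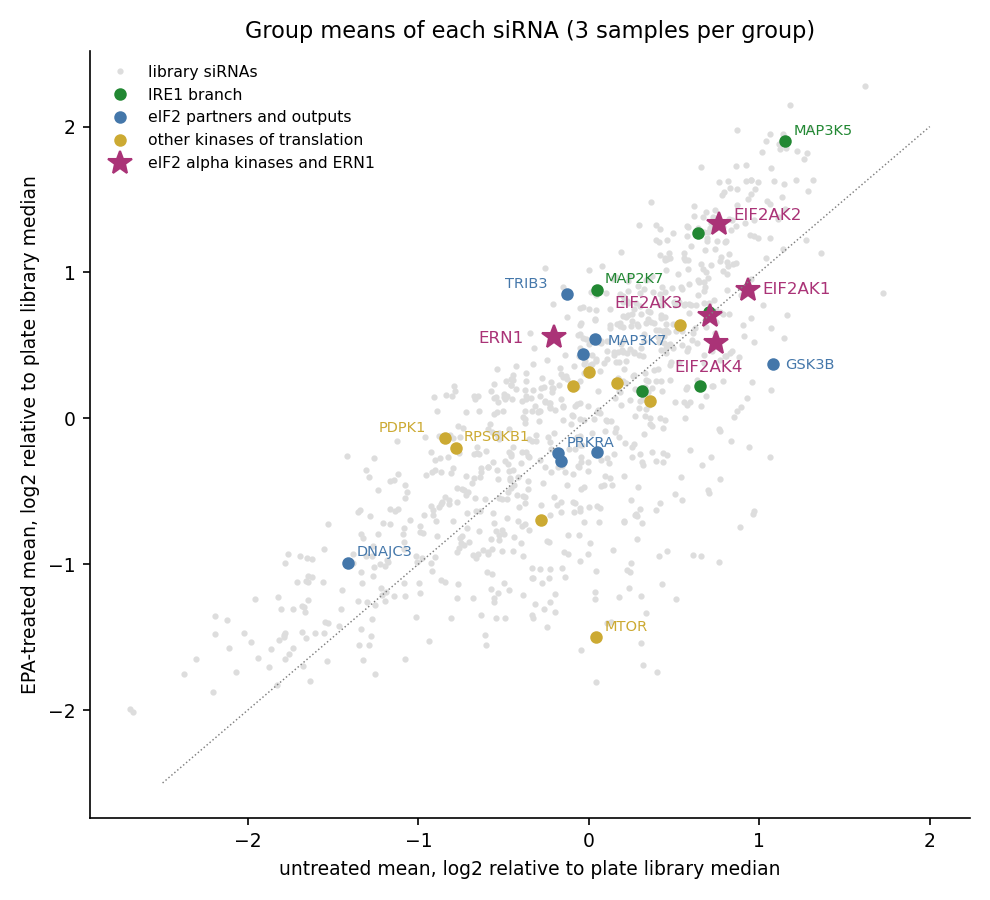
Mean log2 value of each library siRNA relative to the plate's library median, untreated (horizontal axis) against EPA-treated (vertical axis), 3 samples per group. Grey points are all 939 siRNAs, stars the 5 members and coloured points the 3 pathway lists; the dotted line marks equal values. EIF2AK2 and ERN1 lie above the line by 0.57 and 0.76, EIF2AK1, EIF2AK3 and EIF2AK4 lie near it, and MTOR lies below it, at -1.54.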

How the data were processed

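Per the file headers, the authors deposited raw data: the fluorescence intensity of every well in each sample. Any correction of these values, and how many siRNAs each well held, is not stated in those sources. The table held 1152 wells on 3 plates of 16 rows and 24 columns. Columns were matched to groups by their headings. Symbols came from a RefSeq gene table of GRCh38.p14 through the locus identifiers (933 of 939 library wells matched). Values analysed were log2 ratios to the median library well of that plate in that sample, without pseudocount or filter. limma 3.58.1 (R 4.3.3; trend and robust options) fitted group means to all 939 library wells over 6 samples, with Benjamini-Hochberg adjustment at 0.05, two-sided. The fit was tested on simulated data. Shares left are ratios of group means of the values as deposited, with delta-method SEs. Single quantities were compared by exact permutation (scipy 1.17.1).

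The members and gene lists were chosen with earlier results of these data known. Named genes were the 5 members, for each member the 2 siRNAs of most similar pattern, and for each pathway list up to 3 with the largest moderated statistic in EPA-treated minus untreated; others are marked where named. One gene of these lists is not reported here and was left out of the counts. With 3 samples per group and 1 well per gene, precision is limited. Sequences of the siRNAs were not used here.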

Additional observations from a re-analysis of the deposited data

How the results depend on the processing

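No paired analysis was possible because the columns are numbered 1 to 6 through both groups and do not carry the replicate numbers of the labels; the replicate block was not run. Leaving out each sample in turn changed no call of a member. The sign of 2 differences near 0 turned there, with EIF2AK3 between -0.12 and 0.11 and EIF2AK1 between -0.21 and 0.024. Untreated, 4 members were higher and 0 lower; the counts of lower members became 4 with OTP3 centring, 5 against row control wells and 1 (ERN1) with row centring, adjacent-well centring or the low-signal filter, and those of higher members became 0 with OTP3 centring and row control wells. With EPA 5 higher members became 1 with OTP3 centring, 3 with row centring, 4 with adjacent-well centring, median polish and median polish with blank subtraction (ERN1 lost each time), and 1 higher and 2 lower against row control wells. In EPA-treated minus untreated, 2 higher members became 0 with row centring, median polish and median polish with blank subtraction, and 1 higher and 1 lower with quantile normalization. The cause of these changes was not tested, except that OTP3 and row control wells read higher than most library wells.

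Signs turned as follows. Untreated: with OTP3 centring EIF2AK3 -0.37, EIF2AK4 -0.33, EIF2AK1 -0.15, EIF2AK2 -0.34; against row control wells -0.29, -0.25, -0.38 and -0.22. With EPA: ERN1 -0.13 and EIF2AK4 -0.18 with OTP3 centring, ERN1 -0.044 with row and -0.27 with adjacent-well centring; against row control wells ERN1 -0.74, EIF2AK3 -0.0498, EIF2AK4 -0.23 and EIF2AK1 -0.80. In the difference, where these 3 were not called against the plate library median and only EIF2AK3 with adjacent-well centring passed among the values that turned: EIF2AK3 0.38, EIF2AK4 0.16 and EIF2AK1 0.33 with OTP3 centring; EIF2AK3 0.0817 with row centring, 0.15 with median polish, 0.0718 with blank subtraction, 0.47 with both, 0.0269 without edge wells and 0.24 against row control wells; EIF2AK3 0.57 and EIF2AK1 0.36 with adjacent-well centring; EIF2AK1 0.0387 with blank subtraction; and EIF2AK4 0.0192 against row control wells. As a log2 ratio of shares, against row control wells in place of OTP3, EIF2AK1 was at -0.43 and EIF2AK4 at -0.038. Without edge wells EIF2AK1 has no value. Row control wells and median polish with blank subtraction were added after seeing the data.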
